A study of Mus musculus with 12 samples.

Results

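Of 28846 mouse genes measured in dissected cardiogenic regions, 4289 were set apart at embryonic day 9.5 (E9.5) from both neighbouring stages of the series, E8.5 and E14. They are the genes whose 3 E9.5 libraries all had a higher, or all a lower, depth-scaled read count (CPM) than all 6 libraries of E8.5 and E14. In 2289 genes (7.94% of those measured) the E9.5 libraries lay above the neighbours, and in 2000 (6.93%) they lay below. The genes above included the embryonic globins Hba-x, Hbb-bh1 and Hbb-y with regulators of red blood cell formation, and the mesodermal regulators Mesp1, Twist1, Msx1 and Msx2. Many genes of small nucleolar RNAs were also above, as was much of the proteasome, a list added after the values had been seen. Among the genes below were Sspn, Aplnr and Mrc1, and a large number of genes with long genomic spans. Ttn, Flt1 and Fgf1 were also below, but their weaker comparison with a neighbour failed the test when certain single libraries were left out. Those of Ttn and Flt1 also failed it after an adjustment for gene span, and Fgf1 lies across Arhgap26, which had more counts. The same libraries chose the genes and entered the model, so the adjusted p-values given for them describe the distance between stages in units of replicate spread and are not separate evidence that a gene was set apart.

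The cardiogenic region is the part of the mouse embryo that forms the heart, and the study measured its total RNA at E8, E8.5, E9.5 and E14 with 3 libraries per stage. The labels name no genotype, strain, allele or agent for any group, and do not say how many embryos went into a library. The E9.5 libraries held 73056001 to 90620692 counts each, those of E8.5 101202593 to 111404849, those of E14 56574386 to 97187372 and those of E8 101231014 to 122785175. The interval before E9.5 is much shorter than the one after it, and no stage between E9.5 and E14 was measured, so a gene above both neighbours need not have its highest level at E9.5. No label says that the libraries of a stage came from separate embryos or litters, and p-values therefore measure only the spread between these libraries, which may be technical.

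A few properties of the libraries touch the results. E8.5 replicate 3 stood apart: the summed level of 16 visceral endoderm and liver genes was 62.8 to 1786 CPM over the E8.5 libraries with replicate 3 highest, 14.3 to 159 CPM at E9.5 and 26.9 to 31.5 CPM at E14. Without that library 3911 genes lay above and 2868 below, including all 2289 of the genes above and 1817 of the genes below. Of the 28846 genes of the main fit, 3890 then lay above and 2830 below. Fewer neighbours must be cleared in that case, so the counts of any gene list can rise by construction. E9.5 replicate 1 was the lowest of its stage in 1553 of the 2289 genes above, and without it 3565 lay above and 3152 below. Globin genes took 0.444% to 1.07% of the counts in E9.5 libraries, 0.0680% to 0.131% in those of E8.5 and 1.91% to 6.03% in those of E14. In whole tissue, more cells of a type and more RNA per cell cannot be told apart.

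The labelled tissue carried its defining markers at each stage. Tnnt2, the cardiac troponin T of the thin filament, measured 406, 493 and 505 CPM at E8.5, 631, 633 and 565 CPM at E9.5 and 1323, 1325 and 1342 CPM at E14. Nkx2-5, a core cardiac transcription factor, measured 104, 72.7 and 79.3 CPM, 80.2, 71.2 and 65.9 CPM and 30.5, 28.6 and 27.7 CPM in the same order. Both overlapped a neighbour or lay between the neighbours, and neither is among the 4289 genes. The same holds for Isl1, a progenitor factor that fell through the stages (10.3, 8.81 and 8.17 CPM at E9.5, between 10.3 to 16.7 CPM at E8.5 and 1.35 to 1.498 CPM at E14), and for the epicardial factors Tbx18 and Wt1, which at E14 were at 49.3 to 51.2 CPM and 37.6 to 43.1 CPM.

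By way of background, the heart at this age is a looping tube that starts to form chambers, valve cushions and an outflow tract, with contributions from the pharyngeal arches and neural crest. Cushions form in the atrioventricular canal and outflow tract when endocardial cells turn into mesenchyme under BMP and TGF-beta signals, with Twist, Snail and Msx transcription factors in the process. The first blood of the mouse embryo is made in the yolk sac: primitive red cells enter the circulation with the first heartbeats, carry embryonic globins, and are later replaced by red cells from the fetal liver that use adult globins.

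The contrast of E9.5 with the average of the stage means of E8.5 and E14 was called by edgeR's quasi-likelihood test (Benjamini-Hochberg adjusted p under 0.05) as higher in 5401 genes (18.7%) and lower in 5152 (17.9%). Of the genes above, 2113 were among the former, and of the genes below, 1842 among the latter. When E9.5 was tested against each neighbour alone, 1530 genes (5.3%) were called higher than both and 1390 (4.82%) lower than both. These include 1406 of the genes above and 1245 of the genes below. Without E8.5 replicate 3 the genes called higher than both numbered 2757. Without E9.5 replicate 2 they were 869 higher and 770 lower (3373 lower in the contrast), and without E9.5 replicate 3 they were 807 and 787. A gene's smaller change, meaning the smaller of its log2 fold changes against E8.5 and E14, had a median size of 0.38 in the genes above and 0.52 in the genes below, and reached 1 in 195 and 283 of them.

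The separation was usually narrow. Between the nearest libraries of E9.5 and of a neighbour the median ratio was 1.08 above and 1.11 below, and it reached 1.5 in 120 and 134 genes. Just inside the rule, the ribosomal protein gene Rps3 had 459.2 CPM in its lowest E9.5 library and the same to 4 digits in its highest neighbour, while just outside it the replication helicase gene Mcm3 had 128.4 CPM in both. On the lower side Kcng2, a potassium channel subunit, was the nearest gene inside, with a highest E9.5 library and a lowest neighbour at 49.1 CPM, and Kmt2e the nearest outside. By their smaller change, 56.9% of the genes above and 57.9% of those below were nearer to E8.5 than to E14.

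**Figure D1:**
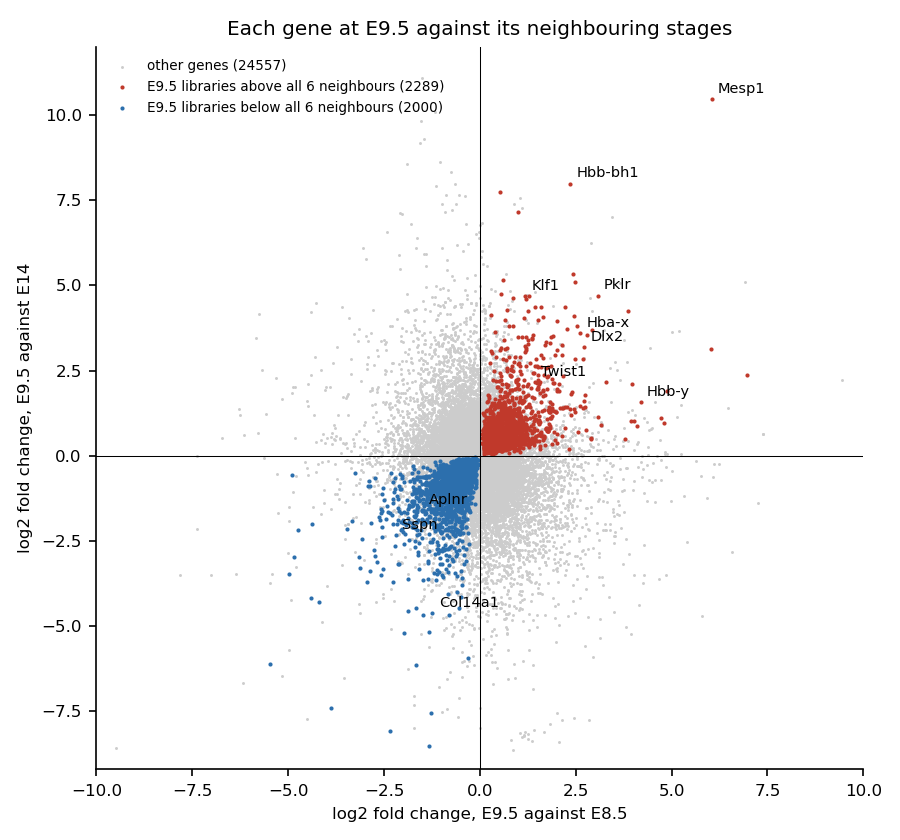
Log2 fold change of E9.5 against E8.5 (horizontal axis) and against E14 (vertical axis) for the 28846 genes tested, 1 point per gene. Red marks the 2289 genes with all E9.5 libraries above the 6 neighbours and blue the 2000 below. Mesp1, Hbb-bh1 and Pklr lie far out in the upper right and Col14a1 low on the left.

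Embryonic globin genes were far above their level at both neighbours. Hba-x (zeta-globin, the embryonic alpha-type chain; chr11:32276400-32278116, plus strand, GRCm38) measured 1037, 1814 and 2330.4 CPM in the E9.5 libraries, against 266, 356 and 226 CPM at E8.5, 153, 65.9 and 207 CPM at E14 and 156, 172 and 168 CPM at E8. Hbb-bh1 (an embryonic beta-type chain; chr7:103841637-103843164, minus strand) measured 869, 1656 and 2243 CPM, against 298, 368 and 266 CPM at E8.5, 7.27, 2.86 and 8.81 CPM at E14 and 189, 197 and 199 CPM at E8. Hbb-y (epsilon-globin, also embryonic; chr7:103851749-103853216, minus strand) measured 1111, 2449 and 3340.0 CPM, against 165, 158 and 53.9 CPM at E8.5, 1020.2, 329 and 983 CPM at E14 and 65.2, 69.2 and 69.1 CPM at E8. None of the 3 overlapped a neighbouring stage, but the lowest E9.5 library of Hbb-y was close to the highest E14 library.

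The fold changes of the globins were log2 2.61 ± 0.40 (± SE throughout) against E8.5 and 3.61 ± 0.41 against E14 for Hba-x, with an edgeR adjusted p of 0.000775 in the weaker comparison. For Hbb-bh1 they were 2.35 ± 0.39 and 7.99 ± 0.51 (adjusted p = 0.00121 in the weaker). Hbb-y stood 4.19 ± 0.58 over E8.5 and 1.56 ± 0.52 over E14 (adjusted p = 0.0289 against E14). That last call was lost when E9.5 replicate 2, E9.5 replicate 3 or E14 replicate 2 was left out, with adjusted p of 0.0631 to 0.107, and with no filter on low counts (0.0780). The adult globins had another course: Hba-a1 measured 177, 199 and 91.4 CPM at E8.5, 824, 1485 and 1953 CPM at E9.5 and 17960.0, 7371 and 24666 CPM at E14, and Hbb-bs 35.6, 38.2 and 6.23 CPM, 67.1, 42.5 and 56.2 CPM and 17894, 6826 and 22191 CPM, both highest at E14. Reads of Hba-a1 and Hba-a2, and of Hbb-bs and Hbb-bt, may be shared between the near-identical copies.

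Of 18 genes of red blood cells other than globins, 10 lay above both neighbours and 0 below, against 7.94% and 6.93% of all genes. The 10 were also called against each neighbour, and the median contrast of the 18 was 1.29 on the log2 scale, beside -0.02 for all genes. The summed level of the 18 was 323 to 465 CPM at E8.5, 645 to 1060 CPM at E9.5 and 427 to 851 CPM at E14. In this sum E9.5 overlapped E14. Hemgn, a nuclear protein of blood progenitors, measured 8.01, 14.8 and 20.6 CPM at E9.5, against 2.63, 3.40 and 1.48 CPM at E8.5 and 0.835, 0.648 and 1.63 CPM at E14. Rhag, a Rhesus-associated membrane protein, measured 4.83, 7.78 and 10.9 CPM against 2.01, 2.72 and 0.940 CPM and 2.70, 0.907 and 1.89 CPM. Ermap, an erythroid membrane protein, measured 9.25, 13.5 and 18.3 CPM against 4.44, 5.11 and 2.01 CPM and 1.96, 0.659 and 1.59 CPM. The lowest E9.5 library of each still exceeded the highest neighbour, by a wide margin in Hemgn and a narrower one in Rhag.

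Transcription factors and a receptor of the red cell lineage did the same, and are named here after their values were seen, except Nfe2. Klf1, the activator of adult beta-globin, measured 6.82, 11.7 and 15.5 CPM at E9.5, 4.59, 5.72 and 4.69 CPM at E8.5, 0.342, 0.443 and 0.508 CPM at E14 and 2.68, 3.18 and 2.82 CPM at E8. Gata1, the master regulator of the lineage, measured 5.01, 7.80 and 9.90 CPM, 2.86, 3.61 and 3.45 CPM, 0.911, 0.432 and 0.743 CPM and 1.68, 1.97 and 1.76 CPM in the same order. Epor, the erythropoietin receptor, measured 6.27, 9.80 and 11.8 CPM, 3.84, 4.49 and 3.86 CPM, 1.23, 0.864 and 1.02 CPM and 2.94, 3.10 and 3.32 CPM. The 3 genes had risen over E8.5 by log2 1.18 ± 0.24, 1.20 ± 0.26 and 1.20 ± 0.20, and stood over E14 by 4.70 ± 0.29, 3.47 ± 0.29 and 3.18 ± 0.22. Nfe2, a leucine zipper factor that acts at globin genes, stood 1.23 ± 0.25 over E8.5 and 2.06 ± 0.26 over E14. The rest were Tfrc, the transferrin receptor that brings in iron (0.80 ± 0.11 and 1.42 ± 0.11), Tal1, a factor of blood commitment (0.65 ± 0.14 and 1.33 ± 0.14), and Sptb, the spectrin of the red cell skeleton (0.58 ± 0.15 and 0.66 ± 0.15).

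Other red cell genes kept rising to E14 or were not apart. Alas2, the erythroid first enzyme of haem synthesis, measured 38.6, 54.6 and 73.3 CPM at E9.5 and 244, 92.6 and 265 CPM at E14. The anion exchanger Slc4a1 measured 73.4, 116 and 155 CPM at E9.5 and 97.8, 35.2 and 99.9 CPM at E14, so the stages overlapped. In each of the 13 genes above among globins and red cell genes, E9.5 replicate 1 was the lowest E9.5 library, as it was for the globin share of counts. After library offsets were adjusted for the genomic span of genes, 10 of the 18 red cell genes were again counted above. Leaving out E8.5 replicate 3 also gave 10, but this cannot test the result, since fewer neighbours must then be cleared.

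Several of the 16 coding genes with the largest smaller change are known from red cells or other blood cells. Pklr, the pyruvate kinase of liver and red cells, measured 8.14, 17.5 and 22.1 CPM at E9.5, against 2.09, 1.84 and 1.75 CPM at E8.5 and 0.930, 0.367 and 0.599 CPM at E14 (log2 3.07 ± 0.38 and 4.70 ± 0.43). Kcnn4, the calcium-gated potassium channel of red cells, measured 4.17, 7.22 and 9.24 CPM against 2.06, 2.87 and 1.46 CPM and 0.683, 0.702 and 0.756 CPM. Add2, the beta-adducin of the membrane skeleton, measured 13.5, 17.7 and 23.4 CPM against 5.73, 9.11 and 4.44 CPM and 4.82, 4.39 and 4.78 CPM. In all 3 genes E9.5 replicate 1 was again the lowest E9.5 library and still above every neighbour. Csf2rb, the shared receptor chain for several blood cytokines, stood 2.01 ± 0.34 over E8.5 and 3.95 ± 0.39 over E14, the acid phosphatase Acp5 1.59 ± 0.22 and 4.37 ± 0.26, and the tetraspanin Tspan32 1.48 ± 0.26 and 1.95 ± 0.27. Gfi1b, a repressor of the red cell and platelet lineages, stood 1.29 ± 0.27 and 4.68 ± 0.34 higher. Of the 14 genes of platelet precursors and haemogenic cells on the list that holds it, 2 lay above and 2 below. These shares were 14.3% each, beside 7.94% and 6.93% of all genes.

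That group of 16 also held ion channel genes of muscle and nerve. Cacna1s, the pore subunit of the skeletal muscle calcium channel, measured 5.001, 6.21 and 5.78 CPM at E9.5, against 2.56, 2.42 and 1.62 CPM at E8.5 and 0.702, 0.529 and 0.365 CPM at E14. Scn4b, a beta subunit of sodium channels, measured 5.70, 6.26 and 6.26 CPM against 3.19, 2.08 and 1.07 CPM and 0.418, 0.400 and 0.339 CPM. In these 2 genes E14 was the lowest stage and E9.5 the highest of the 4, with E8 at 1.79 to 1.96 and 1.98 to 2.34 CPM. The neuronal tubulin Tubb3 (2.72, 8.08 and 8.36 CPM at E9.5) was in the group too, but its interval lies under the longer gene interval Gm20388, which had 1192 times its counts, so its reads may belong to that interval.

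Haem synthesis runs over 9 genes here, counting both first enzymes, a list added after the values had been seen. Of the 9, 4 lay above both neighbours and 0 below, beside 7.94% and 6.93% of all genes. The summed level of the 9 was 238 to 254 CPM at E8.5, 338 to 531 CPM at E9.5 and 338 to 618 CPM at E14. In this sum E9.5 overlapped E14. Alad, which makes porphobilinogen, measured 57.8, 75.7 and 93.6 CPM at E9.5, against 41.2, 37.8 and 37.7 CPM at E8.5 and 36.9, 29.7 and 34.6 CPM at E14. It was clear of the neighbours in every library. Uros, which makes uroporphyrinogen III, stood 0.77 ± 0.12 over E8.5 and 1.01 ± 0.12 over E14, although a gene on the same stretch, Bccip, had 1.14 times its counts. Ppox, later in the path, stood 0.42 ± 0.11 and 0.68 ± 0.11 higher, and its call was lost without E9.5 replicate 3 (adjusted p = 0.0553). The terminal enzyme Fech measured 44.6, 57.2 and 73.7 CPM at E9.5 and 158, 76.0 and 166 CPM at E14, where it was higher.

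The promoters of 3 of the red cell genes are printed because the genes moved together and because GATA1 and KLF1, 2 of the factors above, are known to bind GATA and CACCC motifs. Each line gives the 150 bases before the RefSeq transcription start, 5′ to 3′ on the gene's strand (GRCm38.p6), with motif matches in capitals: AGATAA or TGATAA on either strand (TTATCT and TTATCA when reversed), CCNCNCCC on either strand, where N is any base, and TATAAA on the gene's strand only.
Hba-x (chr11:32276450-32276599, plus strand): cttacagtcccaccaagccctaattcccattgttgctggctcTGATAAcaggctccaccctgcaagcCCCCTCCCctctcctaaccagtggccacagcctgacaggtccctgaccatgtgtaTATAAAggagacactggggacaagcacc
Klf1 (chr8:84901832-84901981, plus strand): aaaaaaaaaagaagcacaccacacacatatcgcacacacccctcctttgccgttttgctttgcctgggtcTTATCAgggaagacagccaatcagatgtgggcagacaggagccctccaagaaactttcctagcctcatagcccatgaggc
Epor (chr9:21963577-21963726, minus strand): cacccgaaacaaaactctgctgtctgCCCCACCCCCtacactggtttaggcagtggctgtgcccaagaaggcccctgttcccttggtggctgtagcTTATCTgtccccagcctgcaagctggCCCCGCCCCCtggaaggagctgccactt

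In the whole promoter windows of the RefSeq table (300 bases: 250 before and 50 after the start), 11 of the 13 red cell and globin genes above had an entry. Tal1 and Tfrc have more than 1, so the 11 genes have 13 promoters. The letters AGATAA or TGATAA were found in 8 of the 13 promoters and in 18.6% of all 32851. The letters CCNCNCCC were found in 8 of the 13 promoters and in 49.5% of all, and TATAAA in 2 of the 13 and in 8.32%. Neighbouring CCNCNCCC matches overlap each other in Epor. This pattern differs from a plain CACCC, which was not counted. The match in Hba-x holds no CACCC, whereas the windows of Klf1 and Hbb-y hold CACCC but had no match. The counts therefore do not say which promoters lack CACCC. A match is a run of letters, and binding was not measured here.

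**Figure D2:**
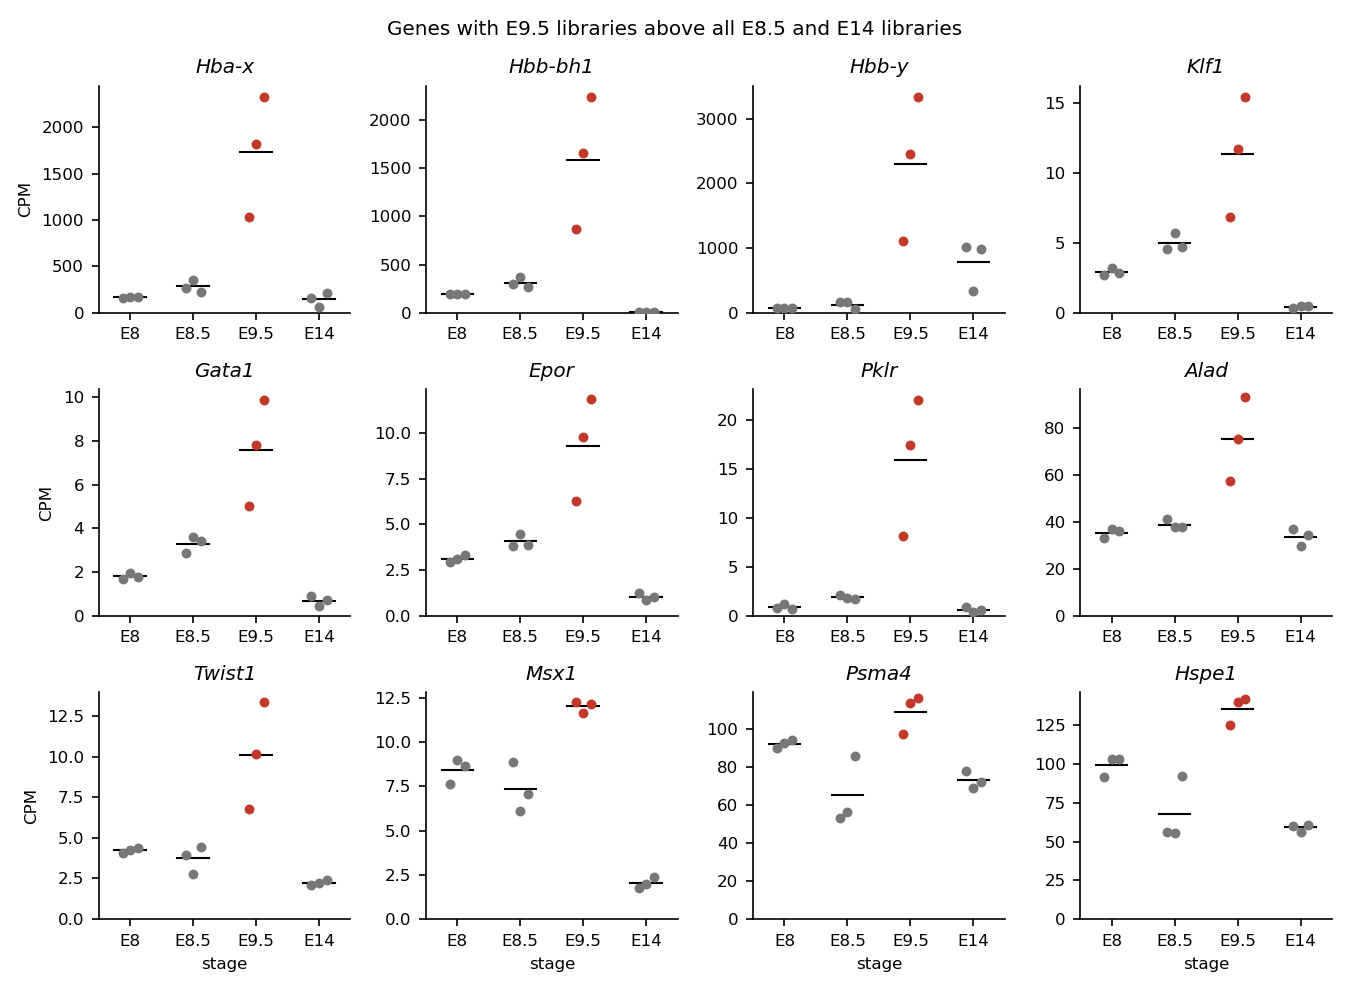
CPM (vertical axis, linear from 0) by stage for 12 genes whose E9.5 libraries lay above all E8.5 and E14 libraries: 1 point per library, E9.5 in red, and a bar at the stage mean. The E9.5 points of the red cell genes spread widely, with replicate 1 on the left the lowest, while those of Msx1 and Hspe1 lie close together.

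Genes of the atrioventricular canal and valve cushion formed the next group. Of 18, 6 lay above (33.3%) and 0 below, beside 7.94% and 6.93% of all genes. The median contrast was 0.80 on the log2 scale. Twist1, a factor of mesenchyme and of the change from epithelium to mesenchyme, measured 6.77, 10.2 and 13.4 CPM at E9.5, against 3.96, 2.78 and 4.46 CPM at E8.5, 2.09, 2.23 and 2.42 CPM at E14 and 4.08, 4.27 and 4.35 CPM at E8. Msx1, a homeobox factor downstream of BMP signals, measured 12.3, 11.7 and 12.2 CPM against 8.86, 6.09 and 7.06 CPM, 1.78, 1.98 and 2.37 CPM and 7.66, 8.99 and 8.63 CPM in the same order. Msx2, its paralogue, measured 12.5, 12.1 and 10.8 CPM against 8.89, 6.91 and 6.49 CPM, 0.664, 0.767 and 0.808 CPM and 7.36, 8.49 and 8.29 CPM. For the Msx genes the step down to E14 (log2 2.55 ± 0.15 and 3.97 ± 0.15) was larger than the step up from E8.5 (0.71 ± 0.14 and 0.67 ± 0.12).

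Snai1, the Snail repressor of epithelial cadherin, measured 1.90, 2.21 and 2.66 CPM at E9.5, against 1.16, 1.03 and 0.968 CPM at E8.5 and 1.82, 1.54 and 1.41 CPM at E14. Its margin over E14 was log2 0.51 ± 0.16 (adjusted p = 0.0221), and the call was lost without E9.5 replicate 3, E14 replicate 2 or E14 replicate 3 (adjusted p = 0.0548 to 0.105). Bmp4, a ligand that acts on cushions and outflow tract, measured 18.5, 19.98 and 20.8 CPM against 17.8, 15.5 and 15.3 CPM and 7.35, 7.04 and 7.02 CPM. Its rise over E8.5 was small (log2 0.29 ± 0.08, adjusted p = 0.0181), and was not called without E8.5 replicate 2, E9.5 replicate 2 or E9.5 replicate 3 (0.0572 to 0.0798) or after the adjustment for gene span (0.111). The sixth gene, the WNT amplifier Rspo3, was at 25.1, 29.1 and 25.2 CPM at E9.5 and 23.9, 24.8 and 14.3 CPM at E8.5, and did not pass the test against E8.5 (adjusted p = 0.137). The other 12 genes on the list were neither above nor below, and the summed level of all 18 had another shape, at 1651 to 2068 CPM at E8.5, 1164 to 1236 CPM at E9.5 and 676 to 752 CPM at E14.

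Mesp1, the first marker of mesoderm that will form the heart, had the largest smaller change among the genes that the naming rule covered. Its counts (not CPM) were 187, 124 and 147 in the E9.5 libraries, 4, 4 and 1 at E8.5, 0, 0 and 0 at E14, and 7, 14 and 4 at E8. Pooled over the libraries of a stage and scaled to depth, the E9.5 level was 67.9-fold that of E8.5 and 25.2-fold that of E8, and at least 134-fold higher than E14, where 3 counts over the group were taken as the floor. The gene lies at chr7:79792241-79793788 on the minus strand and spans 1.55 kb, and no tested interval overlaps it. Its neighbour and paralogue Mesp2 was low and not apart, at 0.0787, 0.113 and 0.114 CPM at E9.5 and 0.0935, 0.0555 and 0.0452 CPM at E8.5. Both are used in the segmentation of somites as well as in early mesoderm. Of 12 genes of somites and skeletal muscle Mesp1 was the one above, a share of 8.33% beside 7.94% of all genes. Their summed level was 2.43 to 4.11 CPM at E8.5, 4.35 to 5.78 CPM at E9.5 and 22.9 to 28.1 CPM at E14.

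T, the brachyury factor of the primitive streak, went the other way. Its counts were 9, 7 and 2 at E9.5, 27, 19 and 42 at E8.5, 12, 17 and 15 at E14 and 44, 35 and 55 at E8. The E9.5 libraries were thus below all others but by few reads, and the call against E14 (log2 -1.46 ± 0.48, adjusted p = 0.0251) was lost without any of 5 libraries: E9.5 replicates 2 and 3 and each E14 replicate (0.0512 to 0.0779). Dnmt3b, the DNA methyltransferase named in the title of the series, was not among the genes: it measured 30.8, 37.6 and 55.6 CPM at E8.5, 24.2, 19.0 and 19.1 CPM at E9.5 and 6.26, 7.48 and 6.995 CPM at E14, and so lay between its neighbours.

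Genes of the pharyngeal arches and neural crest were above in 4 of 19 cases and below in 0, beside 7.94% and 6.93% of all genes. Their median contrast was 1.21. The summed level of the 19 had another shape, at 140 to 177 CPM at E8.5, 160 to 183 CPM at E9.5 and 297 to 306 CPM at E14. E9.5 thus overlapped E8.5, and E14 was highest. Dlx2, a homeobox factor of the arches, was low but distinct, at 0.210, 0.204 and 0.365 CPM at E9.5 against 0.0510, 0.00925 and 0.0543 CPM at E8.5 and 0.0190, 0.0108 and 0.0521 CPM at E14. Alx1, a factor of facial mesenchyme, measured 1.78, 1.99 and 3.20 CPM against 0.816, 0.675 and 1.08 CPM and 0.0949, 0.130 and 0.104 CPM. Alx4, its relative, measured 1.42, 2.92 and 5.24 CPM against 1.06, 1.05 and 1.09 CPM and 0.380, 0.367 and 0.482 CPM. The highest value of each was in E9.5 replicate 3, without which the smaller change of Alx4 was 1.03 in place of 1.58. Alx4 lies across the gene Ext2, which had 27.2 times its counts. Tfap2a, a regulator of neural crest, was above in every library but was not called against E8.5 (log2 0.84 ± 0.34, adjusted p = 0.0695).

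Hox genes, which give position along the body axis, were above in 5 of 20 cases (25%) and below in 0. The shares of all genes were 7.94% and 6.93%. Without E8.5 replicate 3, 8 of 20 were above, beside 3890 of all 28846 genes. Hoxc4 measured 0.328, 0.951 and 1.83 CPM at E9.5, against 0.187, 0.157 and 0.208 CPM at E8.5 and 0.152, 0.140 and 0.143 CPM at E14. Hoxa2, which patterns the second arch, measured 0.577, 0.725 and 1.15 CPM against 0.119, 0.139 and 0.253 CPM and 0.247, 0.335 and 0.326 CPM. Hoxb4 measured 1.05, 1.31 and 1.77 CPM against 0.297, 0.416 and 0.995 CPM and 0.702, 0.378 and 0.443 CPM, so that its E9.5 and E8.5 ranges nearly met. The call of Hoxb4 was lost without E8.5 replicate 1, E8.5 replicate 2, E9.5 replicate 2 or E9.5 replicate 3 (adjusted p = 0.0560 to 0.0980) and in the fit of 9 libraries (0.0502). Hoxa4 was above in every library but not called against E14 (adjusted p = 0.249), and Hoxb3 stood 0.63 ± 0.18 over E8.5 and 1.74 ± 0.19 over E14. Overlapping intervals had more counts than Hoxa2 (4.20 times, Gm28308), Hoxa4 (12.7 times, the same interval) and Hoxb3 (1.95 times, Hoxb3os).

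Among signalling ligands the families differed in the direction of their genes set apart, without a test between them. WNT ligands were above in 3 of 14 (21.4%) and below in 0, beside 7.94% and 6.93% of all genes. A further 1 was called lower than both neighbours. After the adjustment for gene span 3 were above and 2 below. The summed level of the 14 was 120 to 152 CPM at E9.5. It was 155 to 191 CPM at E8.5 and 64.2 to 65.6 CPM at E14, so E9.5 lay between its neighbours. Wnt6 measured 1.68, 1.51 and 2.95 CPM at E9.5 against 1.16, 1.10 and 0.298 CPM at E8.5 and 0.152, 0.0756 and 0.104 CPM at E14, and Wnt7a and Wnt7b stood over E8.5 by log2 1.68 ± 0.51 and 0.95 ± 0.24. The calls of these 3 genes were each lost without E9.5 replicate 3 (adjusted p = 0.162, 0.115 and 0.0598), that of Wnt7a also without E8.5 replicate 1 (0.0597) and that of Wnt6 also without E8 replicate 3 (0.0515), after the adjustment for gene span (0.0581) and in the fit of 9 libraries (0.0652). Of 21 BMP and TGF-beta ligands, Bmp4 and Gdf11 were above and Bmp6 was below, 9.52% and 4.76% beside 7.94% and 6.93% of all genes. The smaller change of Bmp6 was -0.31 in place of -0.65 after the adjustment for gene span, and it was then not called (adjusted p = 0.0711). Gdf11, a ligand that patterns the body axis, measured 18.5, 19.2 and 17.6 CPM at E9.5 against 11.1, 9.86 and 8.93 CPM and 11.01, 9.51 and 10.2 CPM, a clear gap on both sides.

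FGF ligands were below in 4 of 18 (22.2%) and above in 0, beside 6.93% and 7.94% of all genes, with a median contrast of -0.50. Without E8.5 replicate 3, 6 were below, beside 2830 of all 28846 genes. Fgf1 measured 2.78, 3.06 and 2.79 CPM at E9.5, 3.77, 5.89 and 3.57 CPM at E8.5 and 18.9, 20.6 and 21.1 CPM at E14, and lies across Arhgap26, which had 8.87 times its counts. Fgf13, a non-secreted member, measured 108, 103 and 64.2 CPM against 186, 232 and 129 CPM and 114, 196 and 223 CPM. Neither call held in all alternatives. That of Fgf1 was lost without E9.5 replicate 3 (adjusted p = 0.0527), and its smaller change was -0.35 in place of -0.62 without E8.5 replicate 2 and -0.38 after the adjustment for gene span. That of Fgf13 was lost without E8.5 replicate 2, E9.5 replicate 3, E14 replicate 2 or E14 replicate 3 (0.0554 to 0.0820), after the adjustment for gene span (0.213) and with no filter on low counts (0.0544). Fgf16 and Fgf17 were below in every library at levels under 0.1 CPM, with adjusted p of 0.0703 and 0.0691 against E14.

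Of 18 genes of the retinoic acid pathway, 2 lay above (11.1%) and 3 below (16.7%), beside 7.94% and 6.93% of all genes. Crabp2, which carries retinoic acid to its receptors, measured 7.51, 8.35 and 9.57 CPM at E9.5, against 4.51, 4.41 and 6.62 CPM at E8.5, 0.342, 0.465 and 0.469 CPM at E14 and 7.14, 8.09 and 8.43 CPM at E8. Cyp26b1, which degrades retinoic acid, measured 10.7, 7.59 and 6.74 CPM against 6.62, 3.21 and 1.31 CPM and 2.45, 2.70 and 2.38 CPM, with E8.5 replicate 1 nearly as high as E9.5 replicate 3. Its call (adjusted p = 0.0485) was lost without any of 10 libraries (0.0591 to 0.141), after the adjustment for gene span (0.0618), with no filter on low counts (0.106) and in the fit of 9 libraries (0.0828). Rdh10, the enzyme of the first step of retinoic acid synthesis, was below, at log2 -0.51 ± 0.14 against E8.5 and -0.63 ± 0.14 against E14, and its smaller change was -0.29 in place of -0.51 without E8.5 replicate 3. The retinoic acid receptor Rarb stood -0.63 ± 0.12 and -0.45 ± 0.12, and was not called against E14 after the adjustment for gene span (adjusted p = 0.0925). Rxra was below but not called against E8.5 (adjusted p = 0.0549).

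Of 20 sarcomere genes, 3 lay above (15%) and 2 below (10%), beside 7.94% and 6.93% of all genes. Myl7, the atrial light chain of the early heart tube, measured 1631, 1615 and 1412 CPM at E9.5, against 1278, 975 and 1096 CPM at E8.5 and 785, 575 and 583 CPM at E14. Acta2, the smooth muscle actin that the early heart also uses, measured 1894, 1793 and 1626 CPM against 1554, 1305 and 1389 CPM and 651, 592 and 654 CPM. Ttn, the spring protein of the sarcomere, measured 4236, 3943 and 3149 CPM against 4825, 10609 and 14423 CPM and 5300.0, 6814 and 8082 CPM. The light chain and the actin were higher at E9.5 than at both neighbours, with E8 libraries overlapping E9.5 in both, while Ttn was lowest at E9.5, with 1 of its E8.5 libraries not far above.

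The calls of Myl7, Acta2 and Ttn depended on single libraries and that of Acta1 did not, while that of Myom1 was not examined for this. That of Myl7 was lost without E8.5 replicate 2 or E9.5 replicate 2 (adjusted p = 0.0635 and 0.0644). That of Acta2 was lost without E8.5 replicate 2, E9.5 replicate 1 or E9.5 replicate 2 (0.0727 to 0.0801), after the adjustment for gene span (0.0712) and in the fit of 9 libraries (0.0574). That of Ttn (log2 -0.83 ± 0.31 against E14, adjusted p = 0.0419) was lost without any of 9 libraries (0.0550 to 0.155), after the adjustment for its span of 279 kb (0.398), with no filter on low counts (0.0880) and in the fit of 9 libraries (0.0729). Acta1, the skeletal muscle actin, stood 0.54 ± 0.12 over E8.5 and 1.504 ± 0.12 over E14, and its interval overlaps Gm20388, which had 6.79 times its counts. Myom1, a protein of the M-band, was below, at log2 -0.31 ± 0.10 against E8.5 and -0.58 ± 0.10 against E14, and an overlapping interval, Gm26561, had 1.97 times its counts. It was not called against E8.5 after the adjustment for gene span (adjusted p = 0.701).

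Chamber and progenitor regulators gave 1 gene each, shares of 6.67% and 5.88% beside the 7.94% of all genes that lay above. Hey1, a Notch target of the atrial chambers, measured 19.7, 18.4 and 17.1 CPM at E9.5, against 14.8, 11.6 and 15.5 CPM at E8.5 and 12.8, 11.7 and 11.5 CPM at E14, and was 1 of 15 genes of trabeculation and chambers. Hand2, a factor of the right ventricle and outflow tract, measured 51.6, 48.2 and 44.1 CPM against 38.8, 38.1 and 33.8 CPM and 33.6, 32.5 and 31.4 CPM, and was 1 of 17 genes of the second heart field. In both genes the lowest E9.5 library was within a few CPM of the highest E8.5 library. None of the 15 epicardial, 16 visceral endoderm, 17 foregut endoderm or 16 limb bud and lateral plate genes was above or below. Of 12 sinus venosus genes 1 was above (Bmp4), a share of 8.33%, also near that of all genes.

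The proteasome, which degrades tagged proteins, was above in 18 of 31 genes of its core and regulatory particle and below in 0. The shares of all genes were 7.94% and 6.93%. All of the 18 but Psmd2 were also called against each neighbour. The list was added after the values had been seen, and its median contrast was 0.42 on the log2 scale. Psma4, a subunit of the outer core ring, measured 97.2, 114 and 116 CPM at E9.5, against 53.3, 56.4 and 86.0 CPM at E8.5, 77.7, 69.1 and 72.3 CPM at E14 and 90.3, 92.4 and 94.0 CPM at E8. Psmb5, a catalytic subunit, measured 45.8, 52.5 and 54.7 CPM against 36.9, 29.0 and 37.8 CPM, 35.8, 34.7 and 33.9 CPM and 42.1, 44.8 and 42.6 CPM in the same order. In both genes the E8 libraries also lay below the E9.5 libraries, and E9.5 replicate 1 was the nearest to them. The summed level of the 31 genes was 2751 to 3035 CPM at E9.5, against 2109 to 2636 CPM at E8.5, 2004 to 2210 CPM at E14 and 2606 to 2765 CPM at E8, so that E9.5 and E8 overlapped. After the adjustment for gene span 14 of the 31 were above, and without E8.5 replicate 3 it was 26, beside 3890 of all 28846 genes.

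Chaperonin genes were above as well. Hspe1, the lid of the mitochondrial chaperonin, measured 125, 139.9 and 142 CPM at E9.5, against 55.9, 55.5 and 92.1 CPM at E8.5 and 60.3, 56.4 and 60.8 CPM at E14 (log2 1.001 ± 0.16 and 1.20 ± 0.16). Hspd1, its chamber, measured 405, 468 and 477 CPM against 228, 242 and 357 CPM and 254, 216 and 229.5 CPM. In E8.5 replicate 3 both were well above the other E8.5 libraries. The pair was named after its values were seen, and the genes lie head to head with overlapping ends, Hspd1 having 3.52 times the counts of Hspe1. Of 8 subunits of the cytosolic CCT chaperonin, a list also added later, 3 lay above and 0 below, beside 7.94% and 6.93% of all genes. The 3 are Tcp1 (log2 0.43 ± 0.11 over E8.5), Cct3 (0.34 ± 0.10) and Cct4 (0.30 ± 0.10). The call of Cct3 was lost without E8.5 replicate 2, E9.5 replicate 2 or E9.5 replicate 3 (adjusted p = 0.0573 to 0.0694), and that of Cct4 without any of 9 libraries (0.0531 to 0.133), with a smaller change of 0.19 in place of 0.30 without E8.5 replicate 2. Cct4 was also not called after the adjustment for gene span (0.19, adjusted p = 0.0920), with no filter on low counts (0.0533) or in the fit of 9 libraries (0.0831). Without E8.5 replicate 3 all 8 subunits were above, beside 3890 of all 28846 genes.

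Genes of DNA replication and mitosis were above in 8 of 23 cases (34.8%) and below in 0, beside 7.94% and 6.93% of all genes. Their median contrast was 0.50. Pcna, the sliding clamp, measured 130.1, 149.6 and 157 CPM at E9.5, against 88.7, 83.6 and 121 CPM at E8.5 and 108, 90.9 and 93.0 CPM at E14. Birc5, a protein of the chromosomal passenger complex, measured 45.03, 48.7 and 49.04 CPM against 33.9, 26.1 and 33.6 CPM and 33.0, 31.1 and 30.6 CPM. Ccnb1 and Cdk1, the mitotic cyclin and its kinase, stood 0.50 ± 0.11 and 0.44 ± 0.09 over E8.5 and 1.09 ± 0.11 and 0.57 ± 0.09 over E14. In Pcna the nearest library was E8.5 replicate 3. Without it the count of genes above on this list was 20 of 23, beside 3890 of all 28846 genes. Glycolysis and hypoxia genes were above in 4 of 22 cases (18.2%), beside 7.94% of all genes. However, Hk1, Ldha, Aldoa and Gapdh each missed the call against 1 neighbour (adjusted p = 0.328, 0.133, 0.129 and 0.335). Without E8.5 replicate 3 the count was 7 of 22, and after the adjustment for gene span 2 of 22. The counts over all 28846 genes were then 3890 and 1851. Egln3, an oxygen-sensing hydroxylase, was below in every library (log2 -0.58 ± 0.11 and -1.50 ± 0.11).

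Small nucleolar RNAs, which guide the modification of ribosomal RNA and are mostly cut from the introns of host genes, were above in 149 of 520 genes (28.7%) and below in 6. The shares of all genes were 7.94% and 6.93%. The median contrast of the small nucleolar RNAs was 0.49, beside -0.02 over all genes. Together they took 1.78% to 2.09% of the counts in E9.5 libraries, 1.42% to 2.12% in those of E8.5 and 0.965% to 1.11% in those of E14. In this share E9.5 overlapped E8.5, where replicate 3 was highest. Of the 149, 142 were overlapped by a gene with more counts than they had. The overlapping gene was itself above in 75 cases (39 different genes), neither above nor below in 67 and below in 1, and 6 had no tested gene across them. Both comparisons were called for 112 of the 149. Reads of a host's intron and of the small RNA inside it cannot be told apart in these counts. After the adjustment for gene span, which is short for every such gene, 84 were above and 16 below.

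Examples from hosts above and not above are printed to show the RNA that the counts refer to. Each line is the mature strand 5′ to 3′ from GENCODE release M21, with box C (TGATGA, near the 5′ end) and box D (CTGA, near the 3′ end) in capitals where the letters were found, since these boxes hold the proteins of this class.
Snord69 (in Gnl3, chr14:31014287-31014366, minus strand): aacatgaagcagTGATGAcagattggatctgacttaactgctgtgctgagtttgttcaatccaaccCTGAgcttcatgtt
Snord11 (in Nop58, chr1:59704790-59704873, plus strand): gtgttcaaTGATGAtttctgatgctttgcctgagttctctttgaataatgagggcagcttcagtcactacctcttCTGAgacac
Snord50a (in Snhg5, chr9:88521529-88521600, minus strand): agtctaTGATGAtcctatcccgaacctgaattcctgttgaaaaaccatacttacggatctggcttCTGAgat
Snord57 (in Nop56, chr2:130278016-130278087, plus strand): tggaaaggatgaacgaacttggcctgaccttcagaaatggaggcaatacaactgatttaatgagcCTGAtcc

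Snord69 measured 5.17, 4.97 and 4.84 CPM at E9.5, against 1.60, 2.16 and 3.14 CPM at E8.5, 2.03, 1.64 and 1.35 CPM at E14 and 2.29, 2.47 and 2.82 CPM at E8. Its host Gnl3, a nucleolar GTPase, had 79.7, 84.8 and 86.1 CPM at E9.5, 55.9, 64.1 and 96.3 CPM at E8.5 and 28.8, 26.7 and 27.2 CPM at E14, and was not apart, since E8.5 replicate 3 was above it. Snord11 measured 5.58, 5.69 and 5.83 CPM at E9.5, against 2.26, 2.84 and 4.00 CPM and 2.60, 2.32 and 3.45 CPM. Its host Nop58, itself a core protein of this RNA class, overlapped E8.5 in the same way, at 144, 148 and 150.1 CPM at E9.5 and 106, 128 and 170.4 CPM at E8.5. The hosts of the other printed RNAs, Snhg5 and Nop56, were above: Snord50a stood 1.04 ± 0.15 over E8.5 and Snhg5 0.54 ± 0.11, and Snord57 stood 0.90 ± 0.11 and Nop56 0.39 ± 0.08. Hosts had 13.2 times (Snhg5) to 34.7 times (Nop58) the counts of the RNAs printed from them.

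The proteins that these RNAs assemble with were above in 5 of 8 cases and below in 0, beside 7.94% and 6.93% of all genes. The list was added after the values had been seen. The 5 above are Nop56, the methyltransferase Fbl and Nhp2l1 of the box C/D class, and the pseudouridine synthase Dkc1 and Nop10 of the box H/ACA class. Nop10 measured 31.1, 32.8 and 33.1 CPM at E9.5, against 20.8, 14.7 and 21.3 CPM at E8.5 and 25.5, 22.5 and 23.8 CPM at E14. Dkc1 measured 51.9, 54.7 and 55.2 CPM against 38.9, 39.0 and 48.2 CPM and 27.7, 25.9 and 26.1 CPM. Their summed level with the other 3 was 501 to 539 CPM at E9.5, above 384 to 496 CPM at E8.5 and 253 to 276 CPM at E14, with E8 at 471 to 498 CPM. The call of Nhp2l1 was lost without E9.5 replicate 3 (adjusted p = 0.0557).

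MicroRNA genes were above in 120 of 987 cases (12.2%) and below in 9 (0.912%), beside 7.94% and 6.93% of all genes. No label names a step that selects small RNAs, and 119 of the 120 were overlapped by a gene with more counts, so the values need not be those of mature microRNAs and no mature sequence is printed. Mir877, in Abcf1, measured 1.90, 1.91 and 1.86 CPM at E9.5 against 0.807, 0.767 and 1.13 CPM at E8.5 and 0.854, 0.940 and 1.06 CPM at E14, and Abcf1, which had 59.6 times its counts, was itself above (log2 0.34 ± 0.11 and 0.75 ± 0.11). After the adjustment for gene span Abcf1 was not called against E8.5 (adjusted p = 0.0718). Of the other microRNA genes that the naming rule covered, AC151967.1, Mir3112 and Mir3076 had smaller changes of 0.92, 0.91 and 0.90, which were 0.58, 0.55 and 0.56 after the adjustment for gene span, where they and Mir877 (0.65 in place of 0.99) remained called. Mir7089 stood 0.87 ± 0.24 over E8.5, with its call lost without E8.5 replicate 1 or E9.5 replicate 1 (adjusted p = 0.0515 and 0.0517) and after the adjustment for gene span (0.156). On the lower side Gm25559 had 1.01 to 1.16 CPM at E8.5, 1.68 to 1.82 CPM at E14 and at most 0.0342 CPM at E9.5, but in E8 it was at 1.34, 0.0172 and 1.42 CPM, so 1 E8 library was as low. Gm24270 was at 2.205, 3.25 and 3.76 CPM at E9.5 and 6.30, 11.1 and 4.59 CPM at E14, a call lost without E14 replicate 2 (adjusted p = 0.0533; smaller change -0.79 in place of -1.26).

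Long non-coding RNA genes were above in 228 of 4355 cases (5.24%) and below in 323 (7.42%), beside 7.94% and 6.93% of all genes. Redrum, an RNA known from red cell maturation, measured 3.95, 7.01 and 8.14 CPM at E9.5, against 2.35, 3.89 and 1.80 CPM at E8.5 and 2.58, 1.05 and 1.99 CPM at E14. Its call was lost without E8.5 replicate 1, E8.5 replicate 3, E9.5 replicate 2 or E9.5 replicate 3 (adjusted p = 0.0572 to 0.0860). Tspan32os and Gm44089, which lie against the blood cell genes Tspan32 and Add2 described with the red cell genes, stood 1.17 ± 0.27 and 1.41 ± 0.31 over E8.5, and their partners had 2.93 and 9.58 times their counts. Gm5627 stood 1.30 ± 0.25 and Gm2061 1.14 ± 0.36 over E8.5. The call of Gm2061 was lost without E8.5 replicate 1, E9.5 replicate 2 or E9.5 replicate 3 (0.0656 to 0.115) and after the adjustment for gene span (0.05003). The 5 named below were Gm37245, 5830432E09Rik, Gm16226, Gm15713 and Gm12296, with log2 values from -1.38 ± 0.23 to -1.85 ± 0.32 against E14, and 5830432E09Rik lies against Ptpre, a coding gene below that had 11.9 times its counts.

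**Figure D3:**
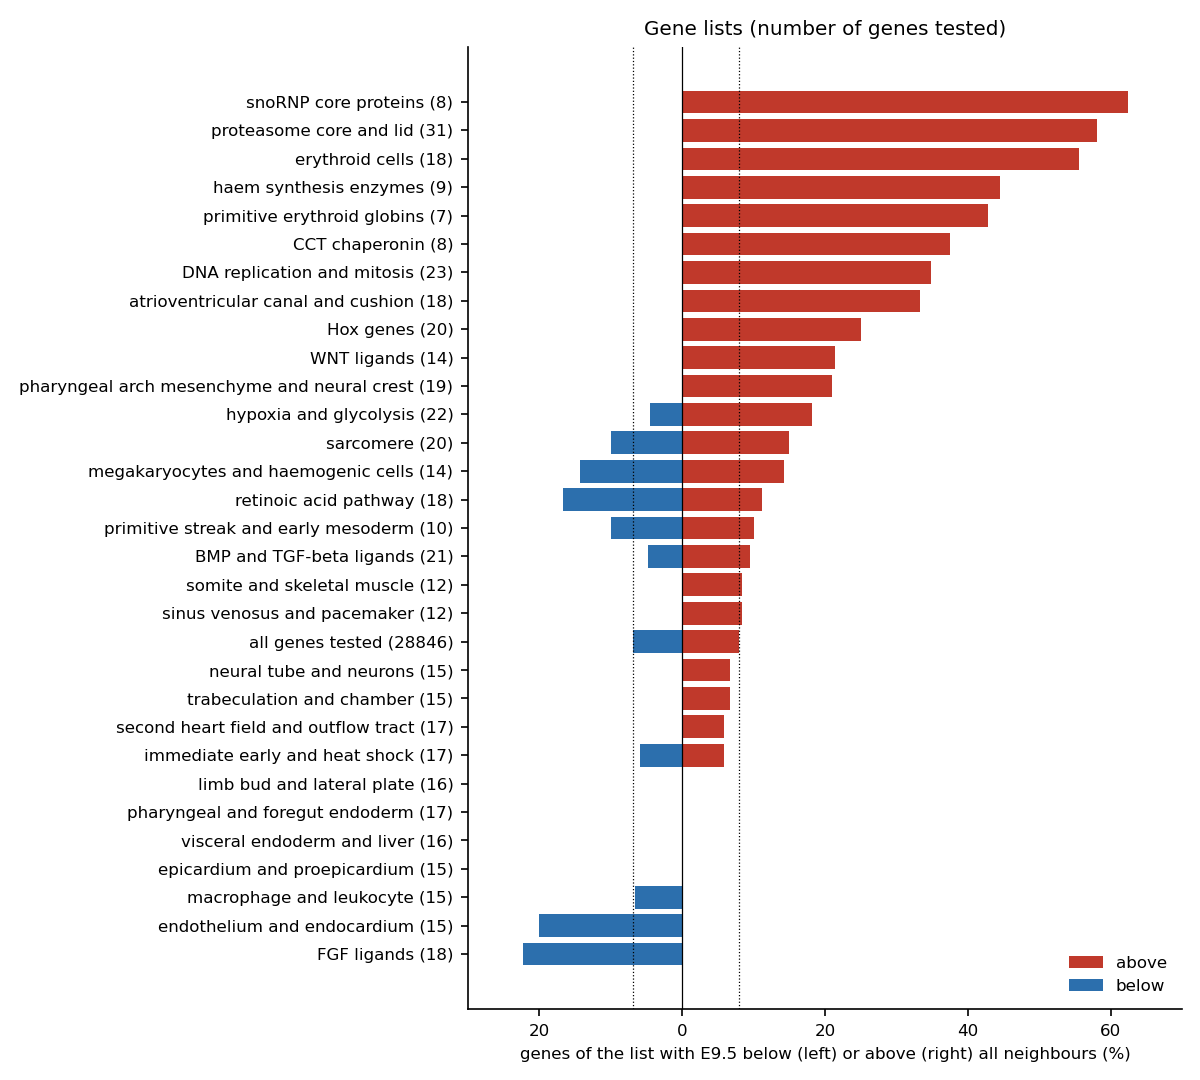
Share of each gene list (horizontal axis, %) with the E9.5 libraries above all neighbours (red, right) or below them (blue, left), with the number of genes tested in brackets. Dotted lines mark the shares over all 28846 genes, 7.94% above and 6.93% below. The bars of snoRNP core proteins (5 of 8), the proteasome (18 of 31) and erythroid cells (10 of 18) reach farthest right and that of FGF ligands (4 of 18) farthest left. The lists of haem synthesis, proteasome, CCT and snoRNP genes were added after the values had been seen. Their bars therefore cannot be ranked against those of the other lists. The other lists were also chosen with earlier results of these data known, so no bar is independent support for a list.

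Turning to the genes below, Sspn had the largest smaller change among the coding genes that the naming rule covered. Sspn encodes sarcospan, a membrane protein of the dystrophin complex of muscle. It measured 11.2, 17.2 and 18.2 CPM at E9.5, against 61.0, 56.2 and 94.2 CPM at E8.5, 81.5, 74.6 and 78.2 CPM at E14 and 111, 152 and 148 CPM at E8. The E9.5 libraries were thus far below those of the 3 other stages (log2 -2.18 ± 0.22 against E8.5 and -2.33 ± 0.23 against E14, adjusted p = 9.34e-05 in the weaker). The gene lies at chr6:145931641-145965223, plus strand, and spans 33.6 kb, and with the adjustment for span its values were -2.17 ± 0.23 and -2.30 ± 0.23.

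Aplnr, Fam46a and Rassf4 were likewise lowest at E9.5 and are not of long span. Aplnr, the receptor of apelin in early heart progenitors and vessels, measured 6.55, 4.84 and 5.62 CPM at E9.5, against 8.94, 14.1 and 24.5 CPM at E8.5, 17.7, 16.6 and 17.7 CPM at E14 and 19.4, 21.1 and 21.1 CPM at E8. Fam46a, a poly(A) polymerase family gene, measured 8.69, 7.57 and 6.84 CPM against 14.6, 17.8 and 19.6 CPM, 25.6, 24.2 and 25.1 CPM and 20.02, 19.9 and 19.9 CPM in the same order. Rassf4, a Ras-association protein, measured 6.08, 5.26 and 4.73 CPM against 16.8, 18.6 and 14.3 CPM, 16.3, 15.3 and 15.1 CPM and 14.6, 12.8 and 13.8 CPM. E9.5 lay below all libraries of the other stages in each, E8 included, and the spans are 3.70 kb, 6.91 kb and 40.9 kb.

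Col14a1, a fibril-associated collagen, had a different shape. It measured 3.64, 3.10 and 3.25 CPM at E9.5, against 7.24, 8.06 and 8.26 CPM at E8.5, 84.6, 80.3 and 81.6 CPM at E14 and 7.52, 7.44 and 7.69 CPM at E8, a dip before a much higher level. Pid1, a phosphotyrosine-binding protein, stood -1.62 ± 0.37 against E8.5 and -2.82 ± 0.38 against E14, and its smaller change was -0.89 in place of -1.62 without E8.5 replicate 3, where it was at 26.1 CPM beside 9.08 and 8.92 CPM in the other E8.5 libraries. Kit, the stem cell factor receptor of blood progenitors and neural crest, measured 15.01, 12.3 and 11.9 CPM at E9.5 against 23.2, 24.7 and 23.4 CPM and 22.5, 27.2 and 23.3 CPM. Its groups were well apart (log2 -0.86 ± 0.10 and -0.90 ± 0.10). Spi1, a factor of white blood cells, was below in every library but not called against E8.5 (adjusted p = 0.122).

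Of 15 genes of endothelium and endocardium, 3 lay below (20%) and 0 above, beside 6.93% and 7.94% of all genes, with a median contrast of -0.30. Without E8.5 replicate 3 it was 5 below, beside 2830 of all 28846 genes, and after the adjustment for gene span 2. Flt1, a VEGF receptor, measured 46.6, 37.9 and 35.8 CPM at E9.5, against 73.9, 73.5 and 55.6 CPM at E8.5 and 50.1, 63.0 and 52.7 CPM at E14. Cdh5, the cadherin of endothelial junctions, measured 78.9, 66.8 and 65.8 CPM against 106, 87.7 and 81.3 CPM and 131, 135 and 133 CPM. Sox17, an arterial and endocardial factor, measured 3.39, 2.83 and 2.75 CPM against 4.26, 3.66 and 5.29 CPM and 4.01, 4.14 and 4.32 CPM. In each, E9.5 replicate 1 came close to the neighbours. The calls were lost without E9.5 replicate 3 in all 3 genes, without E9.5 replicate 2 in Cdh5 and Sox17, without E14 replicate 2 in Flt1 and Sox17 and without E14 replicate 3 in Sox17 (adjusted p = 0.0542 to 0.0762), and that of Flt1 also after the adjustment for gene span (0.370). The summed level of the 15 genes was 643 to 734 CPM at E9.5, 672 to 865 CPM at E8.5 and 1050 to 1110 CPM at E14, so E9.5 overlapped E8.5.

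Macrophage and leukocyte genes gave 1 of 15 below (6.67%, beside 6.93% of all genes) and 0 above. Without E8.5 replicate 3 it was 3 below, beside 2830 of all 28846 genes. Mrc1, the mannose receptor of macrophages and some endothelial cells, measured 4.04, 3.09 and 3.42 CPM at E9.5, against 8.03, 9.17 and 16.8 CPM at E8.5, 21.5, 19.5 and 19.3 CPM at E14 and 10.7, 10.6 and 9.66 CPM at E8. The leukocyte marker Ptprc was near 0 before E14, with 0.306, 0.573 and 0.0271 CPM at E8.5 and 0.774, 0.204 and 0.274 CPM at E9.5. Those 2 stages overlapped in Ptprc. Of 17 immediate early and heat shock genes, Hspb1 was above and Atf3 below, 5.88% each beside 7.94% and 6.93% of all genes. Neither was called against both neighbours (adjusted p = 0.234 and 0.373 against E14).

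**Figure D4:**
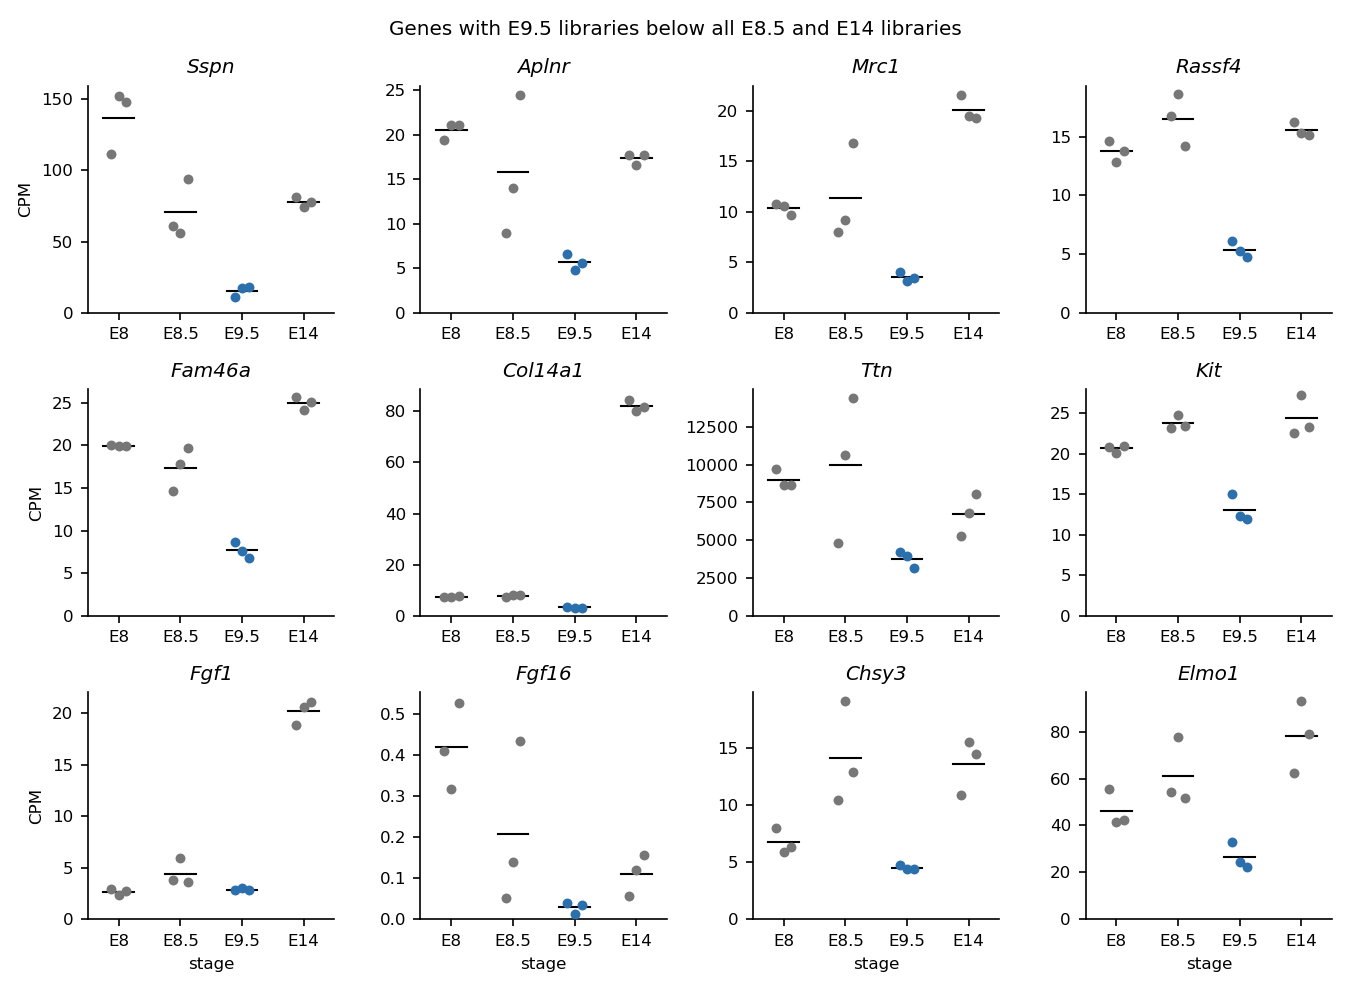
CPM (vertical axis, linear from 0) by stage for 12 genes whose E9.5 libraries lay below all E8.5 and E14 libraries: 1 point per library, E9.5 in blue, and a bar at the stage mean. The E9.5 libraries of Sspn and Aplnr are lowest of all 4 stages, Col14a1 dips before its high level at E14, and the Ttn libraries of E8.5 spread widely.

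Most of the other large changes below were in genes of long span. Among the 16 coding genes with the largest smaller change the median span was 281 kb, against 14.6 kb for the 16 above. Grik2, a glutamate receptor subunit with a span of 689 kb, measured 3.70, 4.83 and 4.08 CPM at E9.5 against 9.95, 10.8 and 8.82 CPM at E8.5 and 19.7, 24.8 and 23.7 CPM at E14. Elmo1, an engulfment and cell movement protein with a span of 516 kb, measured 32.9, 24.2 and 22.2 CPM against 54.4, 77.8 and 51.5 CPM and 62.6, 93.3 and 79.1 CPM. Eda, the ligand ectodysplasin with a span of 425 kb, measured 10.6, 8.86 and 8.62 CPM against 15.6, 23.4 and 25.1 CPM and 30.4, 45.3 and 45.4 CPM. With the library offsets adjusted for gene span, the changes against E8.5 became -0.71 ± 0.11 for Grik2 (from -1.23 ± 0.16), -0.71 ± 0.11 for Elmo1 (from -1.21 ± 0.21) and -0.75 ± 0.18 for Eda (from -1.19 ± 0.21), and all 3 remained called (adjusted p = 0.000777, 0.000622 and 0.0102).

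Similar values held for Fam19a2, a secreted peptide gene of the nervous system (log2 -2.58 ± 0.30 and -1.69 ± 0.29, with a span of 477 kb), the phosphatase Ptpre (-1.91 ± 0.23 and -1.31 ± 0.23, 149 kb) and Fam110b (-1.25 ± 0.19 and -1.33 ± 0.19, 464 kb). Of the rest, Chsy3, a chondroitin synthase, stood -1.65 ± 0.21 and -1.60 ± 0.21 over 235 kb, Hs3st5, a heparan sulfotransferase, -1.45 ± 0.31 and -2.003 ± 0.31 over 328 kb, and Wbscr17, a GalNAc transferase, -1.31 ± 0.22 and -1.24 ± 0.23 over 436 kb. After the adjustment for gene span the smaller changes were -1.07 for Fam19a2 (from -1.69), -0.71 for Fam110b (from -1.25) and -0.64 for Wbscr17 (from -1.24), and those of Ptpre, Chsy3 and Hs3st5 moved by less than 1.5 times. All 6 remained called.

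The direction of change followed gene span across the coding genes, where span is the distance on the genome from a gene's first to its last base. The median span was 11.4 kb in the 1464 coding genes above, 82.6 kb in the 1429 below and 23.3 kb in all 17384 tested. With the coding genes cut into deciles by span, from the shortest to the longest decile the share above fell from 15.8% to 1.55%, and the share below rose from 1.90% to 26.4%. The share of a library's counts in coding genes longer than 100 kb was 13.9% to 15.98% at E9.5, below the 18.5% to 24.5% of E8.5 and overlapping the 15.3% to 18.1% of E14 and the 15.7% to 17.6% of E8. What the trend with span comes from was not tested.

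After each library's offsets were adjusted by a smooth curve on gene span, 1851 genes were above and 1632 below. They included 1571 (68.6%) of the genes above and 1247 (62.4%) of the genes below, and 0 and 7 had moved to the opposite side. The median spans came to 16.5 kb and 31.5 kb, and the shares from the shortest to the longest decile to 12.9% and 6.10% above and 2.53% and 7.76% below. A trend of lesser size thus remained, and the adjustment also removes any true difference that follows span.

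**Figure D5:**
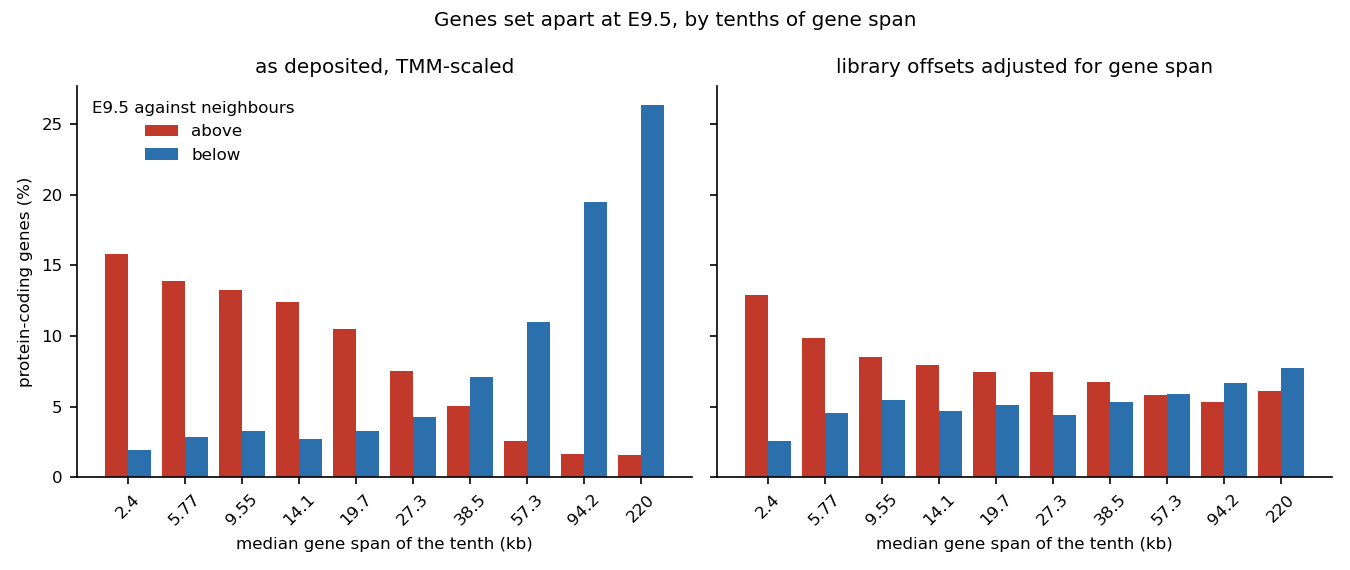
Share of protein-coding genes (vertical axis, %) with E9.5 above (red) or below (blue) all neighbours, for deciles of genes ordered by genomic span, with each decile's median span in kb on the horizontal axis. Left, CPM with TMM-scaled library sizes, where the blue bars reach 26.4% in the longest decile. Right, with offsets adjusted for span, where they reach 7.76%.

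The E8 libraries were not compared in the rule that chose the genes, though they entered the filter on low counts and the scaling. The E9.5 libraries they are set against here were part of the rule. In 1586 of the genes above (69.3%) all 3 E8 libraries were also lower than all E9.5 libraries, in 29 they were all higher, and in 674 they overlapped. In 1072 of the genes below (53.6%) all E8 libraries were higher than all E9.5 libraries, in 45 lower, and in 883 they overlapped. Over all genes tested, E8 was entirely below E9.5 in 26.2%, entirely above in 24.0% and overlapping in 49.8%. Hba-x, Klf1, Twist1 and Mesp1 are of the first kind and Sspn, Aplnr and Kit are lower at E9.5 than at E8, whereas in Crabp2 and Fgf1 the E8 and E9.5 libraries overlapped. By class, protein-coding genes were above in 8.42% and below in 8.22% of cases, long non-coding RNAs in 5.24% and 7.42%, and pseudogenes in 6.03% and 3.29%.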

How the data were processed

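Total RNA from dissected cardiogenic regions was sequenced in 12 libraries, 3 at each of E8, E8.5, E9.5 and E14, grouped by the labels. The authors deposited 1 table of raw read counts for 48709 gene intervals, per the file headers. STAR 2.5.0 and Cufflinks 2.2.1 are listed in the submitters' processing notes, while counter, strand setting and annotation go unnamed in the labels and headers, so antisense and overlapping genes may share reads. Intervals were matched to GENCODE M21 (GRCm38) by position and strand (42778 intervals) or, failing that, by an overlapping gene of the same symbol (5645), which left 286 unmatched. Gene types and spans were taken from this annotation.

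One edgeR 4.0.16 quasi-likelihood model (R 4.3.3, TMM scaling) was fitted to 28846 intervals past filterByExpr with a mean per stage, p-values were adjusted over all of them, and CPM used TMM-scaled totals. The script was tested on simulated data. The members and gene lists were chosen with earlier results of these data known. Genes named in the text were taken by rule: among genes apart and called against both neighbours at 5 CPM or more, the 16 above and 16 below with the largest smaller change, 5 long non-coding RNA and 5 microRNA genes a side at 1 CPM or more (fewer where fewer passed), up to 4 genes per list, and 12 preset genes. Some genes of the lists are not reported here. Others are said to be named after their values were seen or are partners or hosts of named genes. Alternatives were other scalings, filters, tools and fits, each library left out, a replicate block and an adjustment for gene span by loess.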

Additional observations from a re-analysis of the deposited data

How the results depend on the processing

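The counts of genes above and below, of the contrast, and of genes called against both neighbours stayed within 1.5 times of the reported ones under upper-quartile and RLE scaling, other filters on low counts, the fit of 9 libraries, DESeq2 1.42.0, and the adjustment for gene span. Against a log2 fold change of 1 (glmTreat), the contrast was called higher in 165 genes and lower in 233, and both neighbours in 11 and 11. A gap of at least 1.5 times between the nearest libraries left 120 above and 134 below. Intervals that no other interval overlaps with at least 0.5 times their counts, an alternative chosen after seeing the data, gave 1244 above and 1414 below.

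Leaving out each library in turn gave 3846 to 7152 genes higher and 3373 to 6054 lower in the contrast, 807 to 2757 higher and 770 to 1866 lower than both neighbours, and 2315 to 3911 above and 1901 to 3152 below. Fewer libraries must be cleared when 1 is left out, so the counts above and below can rise by construction. The genes above made up 53.4% of the genes above or below with TMM, 54.6% with RLE, 50.9% with upper-quartile factors and 62.2% with unscaled totals. The cause of these shifts was not tested.

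Of 115 named genes above or below, 104 were called against both neighbours. Of these, 79 kept the call whichever library was left out and 25 lost it without at least 1, and 0 reversed. With the adjustment for gene span 102 of the 115 kept their side of the threshold, 12 lost the call and 1 gained it. With no filter on low counts 5 lost the call (Hbb-y, Ttn, Fgf13, Cyp26b1 and Cct4), and in the fit of 9 libraries 6 did (Ttn, Acta2, Hoxb4, Wnt6, Cyp26b1 and Cct4).

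Replicate numbers were not taken to pair the libraries: same-numbered libraries of different stages had correlations of -0.341 to 0.344 over all 4 stages, over 0.1 in 5 of 18 pairs, beside -0.444 to 0.485 for different numbers. With the replicate block the contrast was called higher in 5134 genes and lower in 4744, and both neighbours in 1421 and 1233. It ended the calls of Hbb-y, Ttn and Wnt6 and gained that of Fgf16, and changed no other call among the named genes.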
